A study of Mus musculus with 20 samples.

Results

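The genes described here are 10 immediate early and injury response genes, Fos, Fosb, Jun, Junb, Egr1, Nr4a1, Ier2, Arc, Dusp1 and Atf3, chosen by name and found by Ensembl identifier, out of 37620 genes listed in the expression table. All 10 had a value in each of the 20 libraries and all 10 were among the 16304 genes tested between spinal levels. RNA-seq was performed on dorsal root ganglion (DRG) cells of adult mice, sorted for the reporter of the heat and capsaicin receptor gene Trpv1, to compare lumbar ganglia (L4-5) with sacral ganglia (L6-S1) of the same donors. There were 4 groups of 5 libraries, namely male lumbar, male sacral, female lumbar and female sacral, from 5 male and 5 female donors that each gave 1 lumbar and 1 sacral library. All donors in all 4 groups were homozygous for Trpv1tm2Bbm, an allele that places a placental alkaline phosphatase and nuclear β-galactosidase reporter under the Trpv1 locus, and were 6 to 8 weeks old. The labels name no drug or lesion, and no library without the reporter allele is compared here. The labels give each donor 2 animal numbers, while the methods of the study count 5 mice of each sex, so that a donor may be 1 animal or a pool of 2. Donors are called M1 to M5 (male) and F1 to F5 (female).

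Every library came from ganglia that were digested with collagenase and then trypsin at body temperature, triturated, loaded with a fluorogenic β-galactosidase substrate and sorted for the brightest cells before RNA was taken. No library of ganglia that were neither digested nor sorted is compared here, so the share of each level that arose during preparation was not tested. The library numbers in the labels run in 4 unbroken blocks, 1 for each group, so that any order of handling cannot be told apart from the group. The libraries held 44016817 to 66628921 reads in genes, as worked back from the deposited values. Neuronal and glial transcripts were both present: mean log2 RPKM (reads per kilobase of transcript, scaled to the reads of the library, on a log2 scale) was 9.98 in lumbar and 9.82 in sacral libraries for Calca, the neuropeptide precursor of peptidergic nociceptors, and 9.46 and 8.09 for Fabp7, a marker of satellite glia. Calca is given for its abundance and is not typical of the nociceptor markers between levels, since 10 of the 12 on the list were higher in sacral libraries.

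Immediate early genes are transcribed within minutes of a stimulus, without new protein synthesis, when calcium, cyclic AMP or mitogen-activated protein (MAP) kinase signals reach transcription factors that already sit on their promoters. Fos, Fosb, Jun and Junb encode subunits of the AP-1 factor, Egr1 and Nr4a1 encode a zinc finger factor and an orphan nuclear receptor, and Arc and Dusp1 encode a synaptic effector and a phosphatase that switches MAP kinases off. Atf3, a stress-induced relative of these factors, marks sensory neurons whose axons have been cut, and enzymatic dissociation of ganglia is known to cut axons and to switch on many of these genes.

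RefSeq promoter windows, from 250 bases before to 50 bases after the gene start in GRCm38.p6, were found for 7 of the 10 genes. They are shown for 4 that represent the stimulus-induced AP-1 factor, the injury marker, the nuclear receptor and the feedback phosphatase. Each of these 4 holds a match to a motif, whereas the windows of Jun and Junb, not shown, hold none. A relation of motifs to the levels of the genes was not tested. Capitals mark every match, on either strand, to 5 motifs: the cyclic AMP response element TGACGTCA, its core TGACGT, the AP-1 site TGACTCA, the EGR site GCGGGGGCG and the CArG box of serum response factor. A core match inside the full element was counted under both.
Fos, chr12:85473640-85473939, plus strand: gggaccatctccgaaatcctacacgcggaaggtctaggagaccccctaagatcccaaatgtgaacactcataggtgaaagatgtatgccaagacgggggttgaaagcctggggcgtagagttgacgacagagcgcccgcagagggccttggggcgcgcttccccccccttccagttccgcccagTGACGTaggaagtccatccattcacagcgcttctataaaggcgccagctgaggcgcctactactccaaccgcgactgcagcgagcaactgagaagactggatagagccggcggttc
Atf3, chr1:191183284-191183583, minus strand: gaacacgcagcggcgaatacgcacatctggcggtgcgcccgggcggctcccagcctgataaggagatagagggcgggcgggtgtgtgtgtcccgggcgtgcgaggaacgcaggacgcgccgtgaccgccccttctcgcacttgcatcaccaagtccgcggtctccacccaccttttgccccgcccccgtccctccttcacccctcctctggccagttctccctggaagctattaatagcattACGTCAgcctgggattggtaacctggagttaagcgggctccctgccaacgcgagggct
Nr4a1, chr15:101266596-101266895, plus strand: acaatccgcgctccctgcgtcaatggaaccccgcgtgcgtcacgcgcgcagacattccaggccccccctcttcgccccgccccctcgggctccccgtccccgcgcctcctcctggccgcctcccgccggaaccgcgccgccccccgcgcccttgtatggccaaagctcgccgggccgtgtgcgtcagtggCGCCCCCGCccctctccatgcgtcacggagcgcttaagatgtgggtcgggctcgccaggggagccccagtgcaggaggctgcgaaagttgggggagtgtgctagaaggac
Dusp1, chr17:26508423-26508722, minus strand: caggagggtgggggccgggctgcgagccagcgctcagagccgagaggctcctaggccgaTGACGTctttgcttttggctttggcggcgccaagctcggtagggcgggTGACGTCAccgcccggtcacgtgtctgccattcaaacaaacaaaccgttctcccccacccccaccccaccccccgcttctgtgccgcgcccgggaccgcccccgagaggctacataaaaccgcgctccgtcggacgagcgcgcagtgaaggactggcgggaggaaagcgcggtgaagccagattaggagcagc
The core TGACGT was found in 3 of the 7 windows (Fos, Atf3 and Dusp1) and in 7.51% of the 32851 windows of this length in the table. The full element was found in 1 of the 7 (Dusp1), against 1.79% of all windows. The EGR site was found in Fosb and Nr4a1, against 2.91% of all windows. The AP-1 site, in 5.2% of all windows, and the CArG box, in 1.63%, had no match in the 7 windows. These are matches of letters in short windows and were not tested as sites.

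The genes differed widely in level, and 5 of them were among the most abundant transcripts of these libraries. Egr1 had the highest mean level over the 20 libraries at 7.75 ± 0.44 (log2 RPKM, SD, n = 20), followed by Fos at 7.22 ± 0.33, Dusp1 at 6.89 ± 0.32, Jun at 6.54 ± 0.28 and Atf3 at 6.27 ± 0.47. In a typical library these 5 stood at percentile 98.4 or higher among genes with a value. Fosb (5.83 ± 0.42) and Nr4a1 (4.90 ± 0.52) followed, and Junb (3.54 ± 0.37), Arc (2.96 ± 0.63) and Ier2 (2.50 ± 0.53) were lowest, with Ier2 at a median percentile of 70.9. RPKM is per length, so these levels can be set beside each other, with 1 limit for Egr1. Its values gave whole reads with a length of 4484 bases rather than the annotated 3100, whereas each of the other genes did so with its annotated length. That length also exceeds the annotated gene from start to end (35020861 to 35024638), and the reason was not tested. The level of Egr1 against the others and its read counts depend on that length and are less certain. Egr1 exceeded Fos and Fos exceeded Dusp1 in 20 of 20 libraries. The widest gaps between neighbours were those of Nr4a1 over Junb (1.36 ± 0.41) and Fosb over Nr4a1 (0.93 ± 0.28), each in 20 of 20 libraries. Other neighbours were less separate: Jun exceeded Atf3 in 15 of 20 libraries by 0.27 ± 0.41, and Arc exceeded Ier2 in 17 of 20 by 0.46 ± 0.51, a gap of about the spread or less. Reads behind these values ran from 241 for Ier2 in its lowest library to 71945 for Egr1 in its highest. Egr1 and Jun each overlap an annotated gene on the opposite strand. Counting by strand is not stated in the sources used here, but the overlapping genes Gm17507 (535 to 2203 reads) and BC042782 (732 to 2179 reads) carried far fewer reads than Egr1 (27330 to 71945) and Jun (8460 to 25006).

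Between spinal levels, the genes did not move as 1 block. Ier2, a nuclear protein induced by growth factors, and Nr4a1 (Nur77) were higher in lumbar libraries, Atf3 was higher in sacral libraries, and the other 7 genes did not pass the test. The test was limma on log2 RPKM with the donor as a block and Benjamini-Hochberg adjustment over the 16304 genes. At an adjusted p of at most 0.05 it called 45.6% of all genes, 15.3% as higher in lumbar and 30.3% as higher in sacral libraries. The counts among the 10 genes, 2 higher in lumbar and 1 higher in sacral, are to be read against these shares. The median log2 difference (lumbar minus sacral) of the 10 genes was 0.17, and that of all genes tested was -0.11.

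Ier2 had the largest difference. Its log2 RPKM in lumbar libraries was lowest at 2.32, with a median of 2.81 and a highest value of 3.61, and in sacral libraries it ran from 1.63 over a median of 2.05 to 2.66. The lumbar library was higher than the sacral library in 10 of 10 donors, although the groups overlapped. The log2 difference was 0.75 (SE 0.14, adjusted p = 0.00019, limma), a 1.69-fold higher RPKM in lumbar libraries.

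Nr4a1 ran from 4.28 over a median of 5.36 to 5.61 in lumbar and from 4.15 over 4.55 to 5.14 in sacral libraries, in log2 RPKM. All 10 donors were higher in lumbar, and the groups overlapped because the 4 lowest lumbar libraries (F5, F1, M1 and F4) fell into the sacral range. The log2 difference was 0.53 (SE 0.14, adjusted p = 0.0049, limma), or 1.44-fold.

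Atf3 went the other way. It ran from 5.30 over a median of 6.13 to 6.39 in lumbar and from 5.87 over 6.55 to 7.05 in sacral libraries, in log2 RPKM, and all 10 donors were higher in sacral. The log2 difference was -0.57 (SE 0.13, adjusted p = 0.0018, limma), a 1.48-fold higher RPKM in sacral libraries. For each of Ier2, Nr4a1 and Atf3 an exact two-sided sign-flip permutation test of the 10 within-donor differences gave p = 0.002, the smallest it can give. The same exact test, unadjusted, gave p = 0.0078 for Dusp1, 0.0098 for Egr1, 0.043 for Arc, 0.18 for Fos, 0.34 for Junb, 0.62 for Fosb and 0.98 for Jun.

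With the deposited scaling, the AP-1 subunits were close to level. Fos ran from 6.70 over a median of 7.27 to 7.89 in lumbar and from 6.78 over 7.10 to 7.57 in sacral libraries, and 6 of 10 donors were higher in lumbar. Its log2 difference was 0.13, with an approximate 95% interval (1.96 SE) of -0.09 to 0.36 and an adjusted p of 0.37 in limma. Fosb, which encodes another Fos-family partner of Jun proteins, had a log2 difference of 0.07 (-0.21 to 0.35), and 5 of 10 donors were higher in lumbar. Jun, the main dimerization partner of Fos, had means of 6.54 ± 0.31 and 6.54 ± 0.27 (SD, n = 10) and a log2 difference of 0.00 (-0.22 to 0.22). Junb had a log2 difference of -0.10 (-0.37 to 0.17), with 6 of 10 donors higher in sacral.

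Egr1, Arc and Dusp1 had more donors on the lumbar side but missed the threshold. Egr1 ran from 7.06 over a median of 8.10 to 8.52 in lumbar and from 7.11 over 7.49 to 8.14 in sacral libraries, 9 of 10 donors were higher in lumbar, and its log2 difference was 0.34 (SE 0.14, adjusted p = 0.058, limma). Arc was the most variable of the 10, from 2.51 to 4.26 in lumbar and from 1.93 to 3.61 in sacral libraries, with a log2 difference of 0.47 (SE 0.22, adjusted p = 0.087, limma) and 7 of 10 donors higher in lumbar. Dusp1 ran from 6.42 to 7.49 in lumbar and from 6.44 to 7.11 in sacral libraries, with a log2 difference of 0.21 (SE 0.11, adjusted p = 0.13, limma) and 8 of 10 donors higher in lumbar. Where donor entered as a fixed term rather than a random block, all 3 passed the threshold in limma (adjusted p = 0.0089 for Egr1, 0.032 for Arc and 0.022 for Dusp1). This made 5 genes higher in lumbar and 1 higher in sacral libraries. In the same limma fit 6 of the 10 genes had an unadjusted p under 0.05, as had 8404 of all 16180 genes tested.

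**Figure D1:**
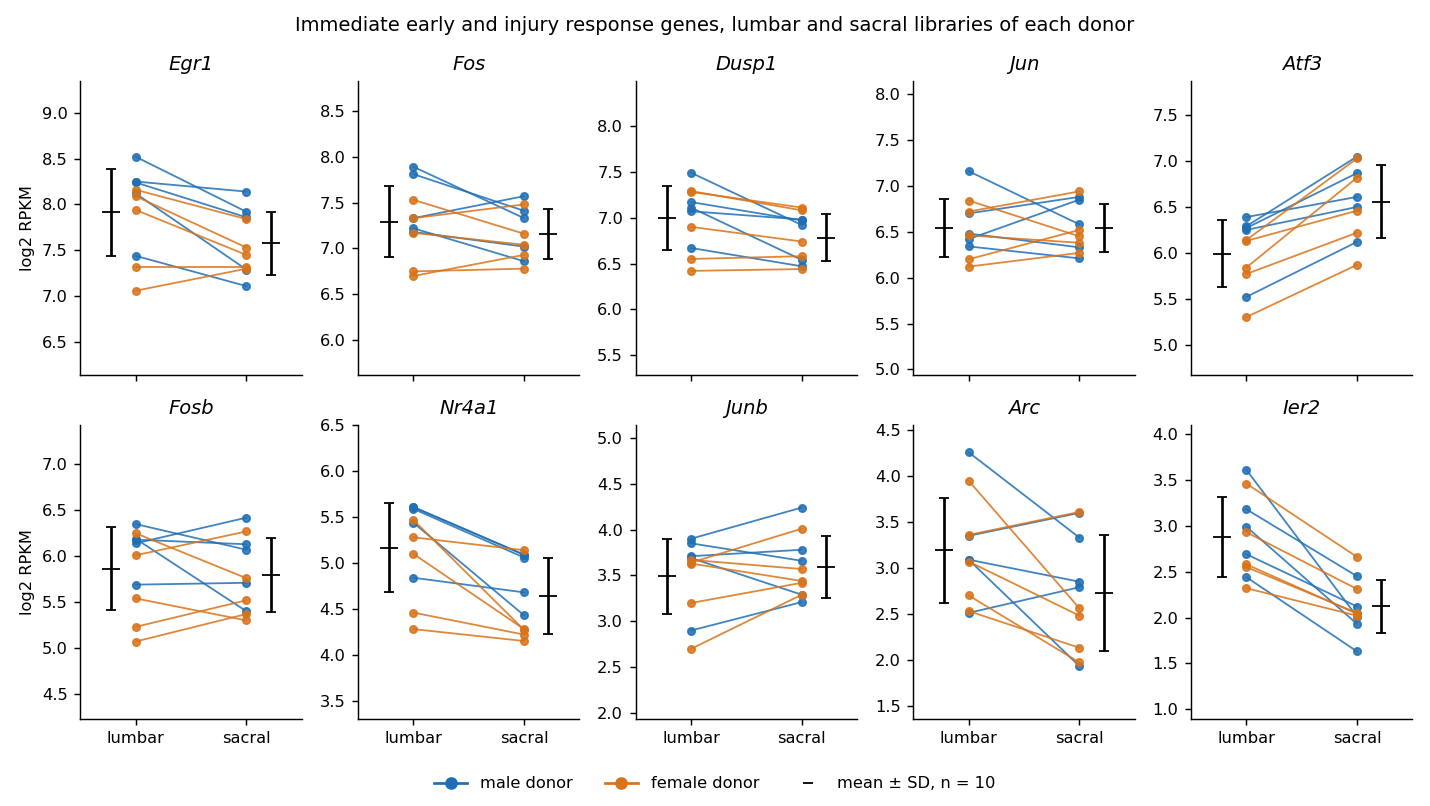
Level of each of the 10 genes (log2 RPKM, vertical axes of equal span) in the lumbar and sacral library of each donor. Each line joins the libraries of 1 donor, blue for male and orange for female, and black bars give the mean ± SD of 10 libraries. All 10 lines fall from lumbar to sacral for Ier2 and Nr4a1 and all 10 rise for Atf3, while the lines of Fos, Fosb, Jun and Junb cross.

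The deposited values share a median log2 RPKM of 0.93 in every library, and the scale set between libraries changed the counts. After quantile normalization the median difference of all genes was -0.03, and 6 of the 10 genes were called higher in lumbar (18.7% of all genes) and 0 higher in sacral (21.1%). On reads worked back from the values, with TMM scaling, the median of all genes was 0.01, and 5 genes were called higher in lumbar (21.4% of all genes) and 1 in sacral (21.6%). Scaled to total reads, the median of all genes was -0.43, and 1 gene was called higher in lumbar (8.74% of all genes) and 3 in sacral (58.1%). Ier2 was called higher in lumbar under all 4 scalings, with a log2 difference from 0.43 to 0.90. Atf3 was higher in sacral under all 4, from -0.89 to -0.30, but with quantile normalization its adjusted p was 0.077 in limma. Nr4a1 was higher in lumbar under all 4, from 0.21 to 0.75, and with total reads its adjusted p was 0.20. Arc and Egr1 stayed on the lumbar side under all 4, although Egr1 was at 0.01 with total reads. The sign of Fos, Fosb and Dusp1 turned with total reads, where their log2 differences were -0.19, -0.25 and -0.11, and Junb, at -0.42 there, was at 0.09 with quantile normalization. Jun, at 0.00 in the deposited scaling, was at 0.25 with quantile normalization and -0.32 with total reads. Fos was called higher in lumbar with quantile normalization (0.34, adjusted p = 0.03, limma). With total reads Junb (adjusted p = 0.0085, limma) and Jun (adjusted p = 0.019, limma) were called higher in sacral.

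**Figure D2:**
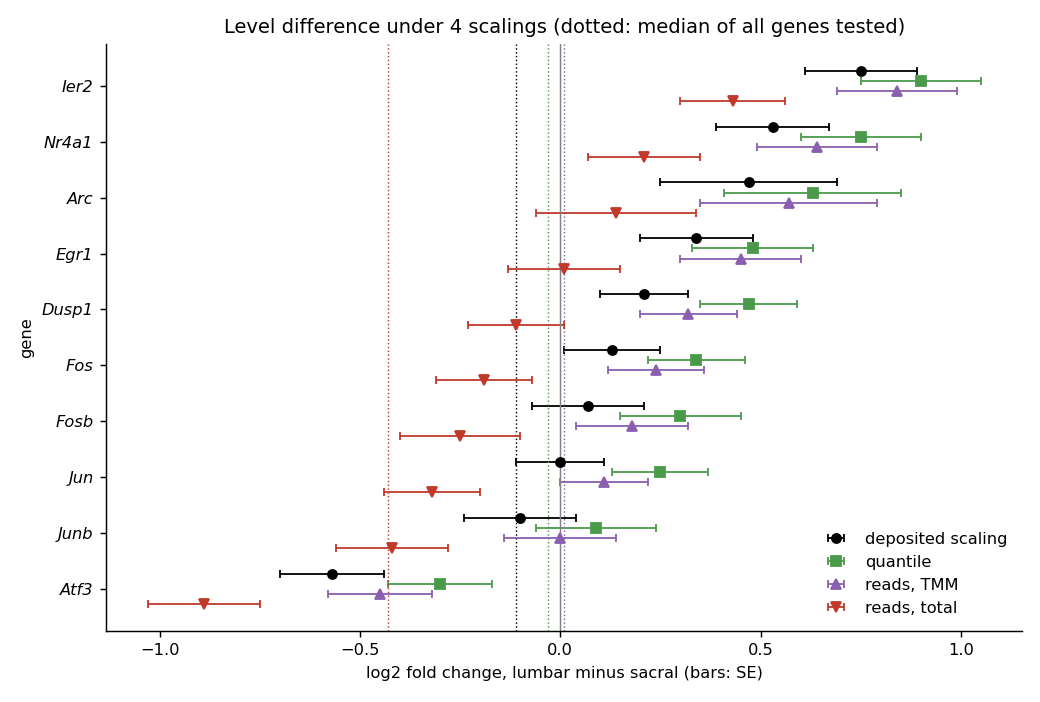
Log2 difference between levels (lumbar minus sacral, horizontal axis) of each gene under 4 scalings, with bars for the SE and dotted lines for the median of all genes tested under each. Ier2 lies highest and Atf3 lowest under each scaling, and the total-read values of all 10 genes lie to the left of their deposited-scaling values.

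A difference between 2 genes of the same library does not depend on the scale between libraries. These pairs were chosen after the values were seen and are given as a description. Ier2 minus Atf3 was -3.11 ± 0.44 in lumbar and -4.43 ± 0.45 in sacral libraries (log2, SD, n = 10), so that Ier2 stood 1.32 higher against Atf3 in lumbar, with a range over donors of 0.62 to 2.20. Nr4a1 minus Atf3 was 1.10 higher in lumbar (0.42 to 2.19), and Fos minus Atf3 was 0.70 higher (0.09 to 1.35). Jun minus Atf3 was 0.56 ± 0.34 in lumbar and -0.01 ± 0.25 in sacral libraries. All of these differences had 1 sign in 10 of 10 donors. Against Fos, Ier2 also stood 0.62 higher in lumbar in 10 of 10 donors, whereas Jun minus Fos differed by -0.13 and Fosb minus Fos by -0.06.

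Within a group, the genes rose and fell together from library to library. After the mean of each of the 4 groups was subtracted, all 45 pairs of the 10 genes had a positive Pearson r over the 20 libraries, with a median of 0.78 and a range of 0.28 to 0.92. The points share donors and library scaling, and this r is a description. Fos had a median r of -0.06 with the other genes tested in all libraries. Among the other 9 genes the highest r with Fos was that of Jun (0.92), followed by Dusp1 (0.88) and Egr1 (0.87). Atf3 stood somewhat apart, with a median r of 0.47 with the other 9 genes, its highest value at 0.61 with Jun and its lowest at 0.28 with Ier2. For Nr4a1, Egr1, Fos and Dusp1 the median r with the other 9 was 0.85, 0.84, 0.83 and 0.83.

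Many libraries, but not all, stood high or low for nearly every gene. Both libraries of donor F3 were above the mean of their group for all 10 genes, and both libraries of F1 were below it for all 10. The median deviation over the 10 genes was 0.33 (lumbar) and 0.45 (sacral) on the log2 scale in F3, and -0.39 and -0.23 in F1. In 9 of 10 donors the median deviations of the lumbar and sacral libraries had the same sign, and F4, at 0.04 and -0.09, was the exception. Some of the 9 were also near the group mean, with M3 lumbar at 0.02 and F2 sacral at 0.03. M5 lumbar was mixed, with 5 genes above and 5 below its group mean, and M3 and F4 lumbar had 6 above and 4 below. M2 lumbar and M4 lumbar were above their group mean for 10 genes and M1 sacral was below its group mean for 10.

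**Figure D3:**
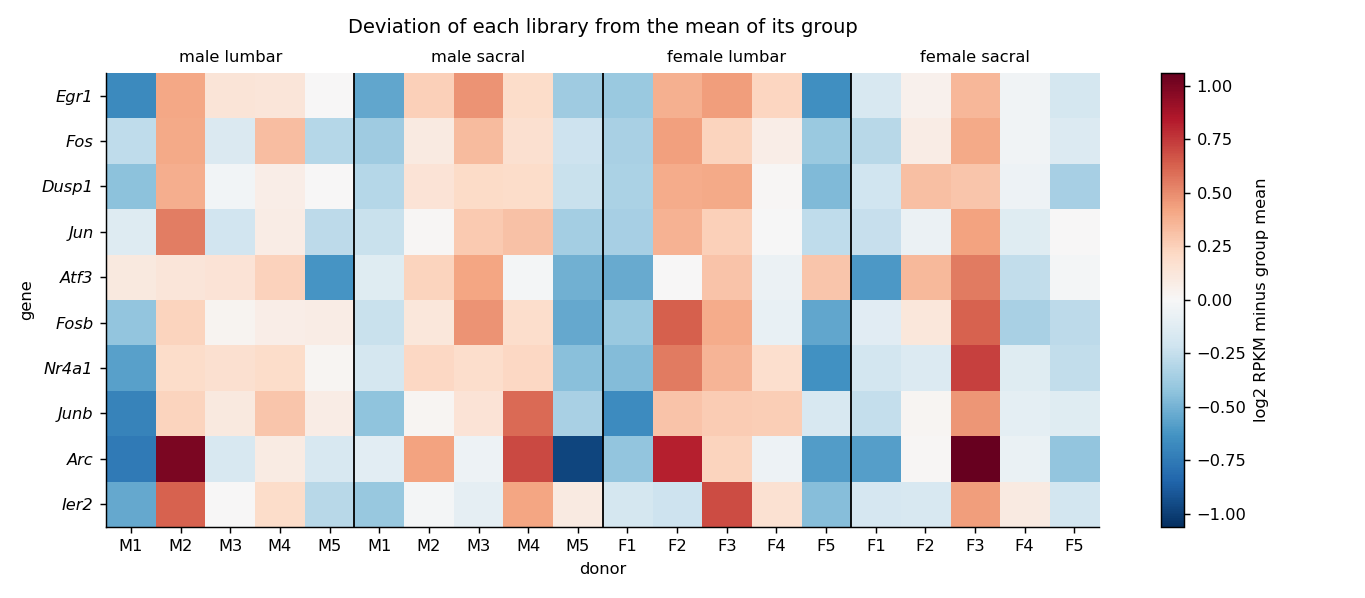
Deviation of each library (columns, by donor within the 4 groups) from the mean of its group for each of the 10 genes (rows, from the highest to the lowest mean level), in log2 RPKM, red above and blue below. Columns of 1 colour show libraries in which nearly all genes moved together, such as both F3 libraries (red) and both F1 libraries (blue), and the Atf3 row departs from its neighbours in M1 lumbar, M5 lumbar and F5 lumbar.

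The 5 genes outside the lists whose deviations were most like those of Fos over the 20 libraries were Bhlhe40, a stimulus-induced transcriptional repressor (r = 0.93), Gm17507, which overlaps Egr1 (0.92), the metalloproteinase gene Adamts1 (0.85), Ezr, which encodes the membrane linker ezrin (0.84), and Nfkb2 (0.84). For Atf3 they were the chemokine gene Ccl2 (0.88), the ETS factor gene Elf1 (0.87), Fbxo30 (0.83), Lima1 (0.82) and Pnp (0.81). The 2 sets of 5 had no gene in common. Gm17507 has 36 annotated exonic bases and overlaps Egr1 on the opposite strand. Unless reads were counted by strand, its reads cannot be told apart from those of Egr1, and its r may not be separate from that of Egr1.

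Donors with a larger lumbar minus sacral difference in Fos tended to have a larger one in Jun. Over the 10 donors, Pearson r was 0.84 (permutation p = 0.0029, adjusted p = 0.026 over 9 relations) and Spearman rho was 0.82 (permutation p = 0.0061, adjusted p = 0.055). Without M2 and M3, the 2 donors farthest from the median Fos difference, r was 0.70 (permutation p = 0.058, adjusted p = 0.39), so the relation rests in part on those donors. Pearson r with Fos was 0.67 for Egr1, 0.62 for Fosb and 0.59 for Dusp1, each with an adjusted permutation p of 0.16, and 0.19 for Atf3 (adjusted permutation p = 0.60). The median r of the Fos difference with that of 15317 genes was 0.13.

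Between the sexes, none of the 10 genes passed the test. In lumbar libraries all 10 were lower in females, with log2 differences (female minus male) from -0.50 for Nr4a1 to -0.14 for Arc. The median of all genes tested was -0.02. Because the 10 genes rose and fell together within groups, they are not 10 separate observations. With the mean of glial markers as a covariate, 5 of the 10 were lower and 5 higher in females. Nr4a1 was at 4.46, 5.47, 5.28, 5.10 and 4.28 in the female and at 4.84, 5.61, 5.59, 5.61 and 5.44 in the male lumbar libraries, in log2 RPKM. The groups overlapped, with F1 and F5 below every male library. In limma 0 of 10 genes were called, against 0.0427% of all genes, and 3 of 10 had an unadjusted p under 0.05 (Nr4a1 and Fosb 0.036, Fos 0.042, each with an adjusted p of 0.41 or more), as had 1864 of all 16386 genes tested. In sacral libraries 8 of 10 were lower in females, limma called 0 of 10 (0.0368% of all genes), and 0 had an unadjusted p under 0.05, against 1320 of all 16321 genes. With the glial covariate 3 of 10 were lower in females there. The level difference did not pass a test of a difference between the sexes for any of the 10 genes, with 0% of all genes called in limma and 0 of the 10 at an unadjusted p under 0.05, against 668 of all 16304. Voom on worked-back reads with TMM scaling also called 0 of 10 in each of these 3 comparisons.

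Other genes of the same families were counted from 3 lists, to be read against the 15.3% of all genes called higher in lumbar and the 30.3% called higher in sacral libraries. Of 11 tested genes of the AP-1 and wider bZIP family, 0 were higher in lumbar and 8 were higher in sacral libraries, with a median log2 difference of -0.32. Voom with TMM scaling called 0 and 3 of them, against 21.4% and 21.6% of all genes. Fosl2, which encodes the Fos-related antigen Fra-2, was at 4.31 ± 0.39 in lumbar and 5.02 ± 0.35 in sacral libraries (log2 RPKM, SD, n = 10), a log2 difference of -0.71 (SE 0.13, adjusted p = 0.00018, limma). Atf5, a stress-response factor, had a log2 difference of -0.60 (SE 0.10, adjusted p = 5.4e-05, limma). Both were higher in sacral in 10 of 10 donors, as Atf3 was.

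In the EGR and NR4A families 6 genes were tested, of which 2 were higher in lumbar and 1 in sacral libraries. The counts were 4 and 1 with quantile normalization (18.7% and 21.1% of all genes). With total reads they were 0 and 3 (8.74% and 58.1% of all genes). Egr3 had a log2 difference of 0.67 (SE 0.22, adjusted p = 0.016, limma) and Nab2, which encodes a corepressor of EGR factors and is induced by them, one of 0.64 (SE 0.16, adjusted p = 0.0024, limma), each higher in lumbar in 9 of 10 donors. Nr4a3, a nuclear receptor gene of the same family as Nr4a1, went the other way, with a log2 difference of -0.76 (SE 0.22, adjusted p = 0.0087, limma) and 10 of 10 donors higher in sacral. Nr4a1 and Nr4a3 differed in direction in all 10 donors.

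Among 31 tested other immediate early genes, 9 were higher in lumbar, 5 were higher in sacral and 17 were not called, with a median log2 difference of 0.02. With total reads the counts were 4 higher in lumbar and 16 in sacral libraries, where 8.74% and 58.1% of all genes were called. Ctgf, a matricellular protein gene, had a log2 difference of 1.34 (SE 0.17, adjusted p = 7.9e-06, limma) and the factor gene Klf2 one of 1.07 (SE 0.22, adjusted p = 0.00051, limma), both higher in lumbar in 10 of 10 donors. Myc (-0.64, SE 0.13, adjusted p = 0.00063, limma) and the growth arrest gene Gadd45g (-0.50, SE 0.12, adjusted p = 0.0025, limma) were higher in sacral in 10 of 10 donors.

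Of 20 tested genes on a list of axon injury genes, which sensory neurons raise after their axons are cut, 13 were higher in sacral and 1 was higher in lumbar libraries, with a median log2 difference of -0.65. The shares of all genes were 30.3% higher in sacral and 15.3% higher in lumbar libraries. The nociceptor list, which also holds genes of neurons in general, had a similar median of -0.64. Whether the injury list differed for a reason other than neuronal content was not tested. The other 6 genes were not called. Among these were Sprr1a (0.04, adjusted p = 0.96, limma), Csf1 (-0.24, adjusted p = 0.17) and Gadd45a (-0.23, adjusted p = 0.18). With the mean of the glial markers as a covariate, 0 of the 20 and 0.564% of all genes were called, so this count of 0 says little about the list. The list median was then -0.41, against -0.05 for all genes. Sox11, a growth-associated factor gene, was at -0.89 ± 0.60 in lumbar and 0.38 ± 0.34 in sacral libraries (log2 RPKM, SD, n = 10), a log2 difference of -1.26 (SE 0.21, adjusted p = 6.9e-05, limma). Gal, the galanin precursor gene, had a log2 difference of -0.97 (SE 0.15, adjusted p = 5.3e-05, limma), and both were higher in sacral in 10 of 10 donors. Nts, which encodes neurotensin, had a log2 difference of 0.53 (SE 0.17, adjusted p = 0.014, limma) with 5 of 10 donors on each side. Several strongly induced injury genes were sparse, and Npy had a value in 6 of 20 libraries, Crh in 2 and Vip in 1.

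**Figure D4:**
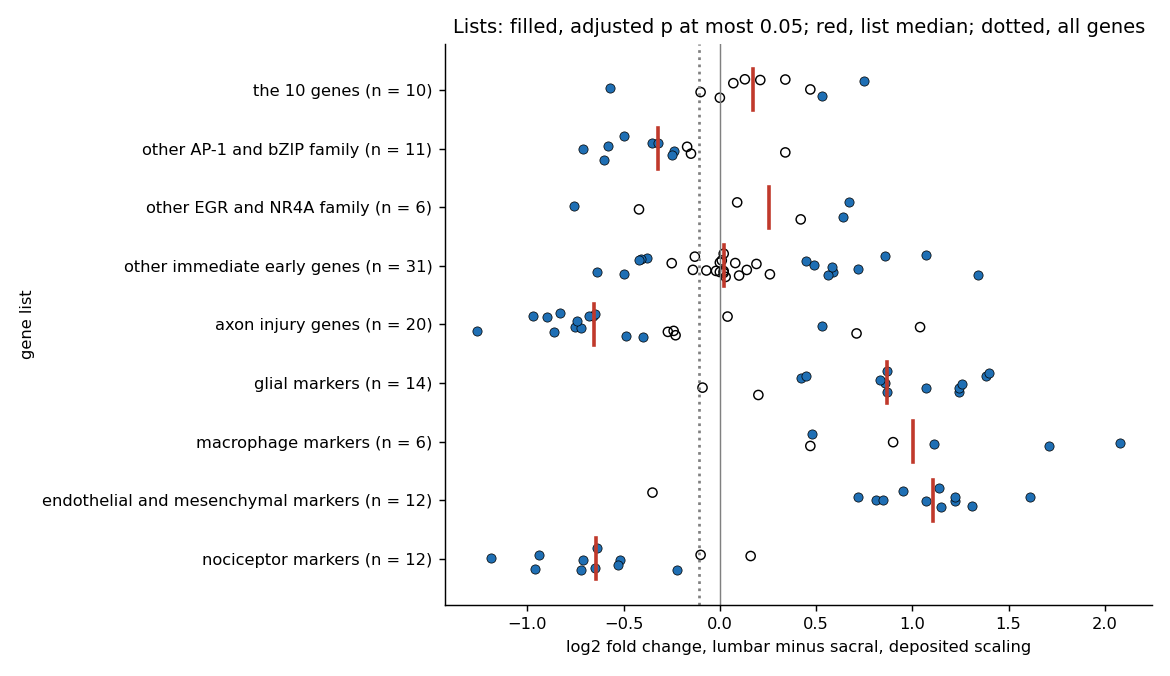
Log2 difference between levels (lumbar minus sacral, horizontal axis) of every tested gene of each list (rows), filled where the adjusted p was at most 0.05. Red bars give list medians and the dotted line the median of all genes, -0.11. The 10 genes spread from -0.57 to 0.75, across the space between the nociceptor markers (median -0.64) and the glial markers (median 0.87).

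Most markers of other cells differed between the levels. Of 14 glial markers 12 were higher in lumbar and 0 in sacral libraries, and their summed RPKM was 1590 to 3250 (median 2140) in lumbar and 1050 to 1710 (median 1300) in sacral libraries, higher in lumbar in 10 of 10 donors. Of 12 genes on the nociceptor list 0 were higher in lumbar and 10 in sacral libraries, with a summed RPKM of 2210 to 3290 in lumbar and 2940 to 3880 in sacral libraries, higher in sacral in 10 of 10 donors. This list also holds genes of neurons in general, and Rbfox3, Uchl1, Snap25 and Tubb3 are among the 10. The peptide genes Calca (0.16, adjusted p = 0.16, limma) and Tac1 (-0.10, adjusted p = 0.37, limma) were not called. The count is therefore not one of nociceptor genes alone. Tubb3 is on both the nociceptor list and the axon injury list. Of 12 endothelial and mesenchymal markers 11 were higher in lumbar, but their summed RPKM, at 83.7 to 391 (median 141) in lumbar and 100 to 188 (median 147) in sacral libraries, was higher in lumbar in 5 of 10 donors. Dcn weighs most in this sum, with a mean log2 RPKM of 6.45 in lumbar and 6.80 in sacral libraries. It was the 1 marker of this list that was not called (-0.35, adjusted p = 0.13, limma). Of 12 macrophage markers 6 passed the filter and 4 of these were higher in lumbar, at a summed RPKM of 8.38 to 45.4 in lumbar and 4.17 to 10.8 in sacral libraries, and Emr1, Cx3cr1, C1qa and Fcgr3 were empty in at least 1 library of each level. In bulk RNA, fewer cells of a type and less RNA per cell cannot be told apart.

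With the mean of the glial markers as a covariate, limma called 0 of the 10 genes and 0.564% of all genes between levels, with 6 of the 10 and 1634 of all 16304 genes at an unadjusted p under 0.05. All 10 log2 differences were then below 0, at a median of -0.51 against -0.05 for all genes. Ier2 was at -0.07 (SE 0.19, adjusted p = 0.95) and Nr4a1 at -0.31 (SE 0.20, adjusted p = 0.67), so that their sign turned, while Atf3 was at -0.93 (SE 0.27, adjusted p = 0.14). The glial markers themselves differ between the levels, so that the covariate and the level cannot be fully told apart in this fit.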

How the data were processed

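Total RNA from sorted DRG cells was amplified (Ovation v2) and made into libraries (Nextera XT) by the authors, and sequenced on an Illumina HiSeq. Per the methods of the study, reads were aligned to mm9 with Subread and counted with featureCounts on Ensembl genes, and the deposited values are log2 RPKM from limma, with normalization by the authors. The submitters' processing notes name Subread 1.18 and 1.20.6, limma 3.26.9 and edgeR 3.12.1. Empty cells hold no value. All 20 columns were mapped to samples by title. The file holds no comparisons of the authors.

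Sex and level gave 4 group means, fitted by limma 3.58.1 under R 4.3.3 to the log2 values as deposited, with a variance trend and the donor as a random block (correlation 0.173). Donors come from the animal numbers in the labels, which are the same for the lumbar and the sacral library of a donor. Deviations from the group means correlated at 0.18 on average within a donor (0.04 to 0.30) and at -0.04 between donors. A gene was tested if 1 group or more had a mean above -1 (log2 RPKM) over 3 or more values, and p was adjusted by Benjamini-Hochberg over all genes tested, at 0.05. Reads were worked back from the values, of which 99.0% of genes came out whole in all libraries within 0.01 read, and entered voom with a TMM factor as an alternative. Other alternatives were filters, pseudocounts of 1 and 0.1, quantile normalization, weights, donor terms, a glial covariate, each sex alone and each donor left out. In 5 simulated sets of 4000 genes, the level test found 55.2% of changes of 0.5 and 94.0% of changes of 1 on the log2 scale, and 5.7% of its calls were false. Each set held 100 changed genes of each size, evenly in both directions. Noise was drawn separately for each gene, with no difference in scale between libraries. In the data 45.6% of genes were called and the scale changed the counts, so these rates do not carry over to them.

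The 10 genes and the other lists were chosen with earlier results of these data known. From each other list the 2 called genes with the largest difference in each direction were named, and for Fos and Atf3 the 5 genes with the most similar deviations. Single genes were also tested by exact sign-flip permutation, and relations over donors by 100000 permutations. Sign-flip p-values measure the spread of the within-donor differences. In limma the p-values between levels rest on the spread of libraries within groups and a donor correlation (0.173) shared by all genes. Those between the sexes measure the spread between donors. Each donor may be a pool.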

Additional observations from a re-analysis of the deposited data

Results flagged for a closer look

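Of 40 groups of 5 libraries tested with Dixon's ratio (10 genes in 4 groups), 4 held a library far from the other 4, and chance gives about 1 in 20. Nr4a1 was at 4.84 log2 RPKM in the male lumbar library of M1, against 5.44 to 5.61 in the other 4 male lumbar libraries. Junb was at 2.90 in the same library, against 3.69 to 3.90. Atf3 was at 5.52 in the male lumbar library of M5, against 6.25 to 6.39. Nr4a1 was at 5.14 in the female sacral library of F3, against 4.15 to 4.28 in the other 4. Without M1 the lumbar minus sacral difference of Nr4a1 was 0.58 (adjusted p = 0.0036, limma), without F3 it was 0.58 (adjusted p = 0.0023), and without M5 that of Atf3 was -0.55 (adjusted p = 0.0017).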

How the results depend on the processing

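Ier2, Nr4a1 and Atf3 kept their direction and their call when each donor was left out in turn, with log2 differences of 0.67 to 0.80, 0.44 to 0.58 and -0.61 to -0.52. Egr1 passed the threshold without M1 (0.35, adjusted p = 0.036) or F5 (0.39, adjusted p = 0.031), and Arc without F3 (0.57, adjusted p = 0.039).

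The count of the 10 genes called higher in lumbar, 2 with the deposited scaling, was 6 with quantile normalization, 5 with TMM, 1 with total reads, 0 with the glial covariate and 1 in female donors alone, where Nr4a1 was at 0.51 (adjusted p = 0.10). The count called higher in sacral, 1, was 0, 1, 3, 0 and 1. Of all genes, 15.3% were called higher in lumbar and 30.3% in sacral with the deposited scaling. These shares were 18.7% and 21.1% with quantile normalization, 21.4% and 21.6% with TMM, and 8.74% and 58.1% with total reads. The glial covariate fit called 0.564% in either direction. In females alone 5941 of all 15702 genes had an unadjusted p under 0.05 in limma, against 8621 of all 16304 with all donors. With total reads Jun was at -0.32 (adjusted p = 0.019), and with the glial covariate Ier2 was at -0.07 and Nr4a1 at -0.31. The donor pairing bore on the lumbar count. With the donor as a fixed replicate block 5 genes were higher in lumbar and 1 in sacral, and with no replicate block 2 and 1. At an unadjusted p under 0.05 in limma, the fixed block held 6 of the 10 genes and 8404 of all 16180. With no block it was 3 of the 10 and 7965 of all 16304.

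Of the 48 other immediate early genes tested, 11 were higher in lumbar and 14 in sacral libraries. The lumbar count was 4 with total reads, 0 with the glial covariate and 5 in females alone. Total reads called 8.74% of all genes higher in lumbar and 58.1% in sacral libraries, and the glial covariate fit called 0.564% in either direction. The sacral count was 8 with quantile normalization, 7 with TMM, 29 with total reads, 7 with the glial covariate, 8 in males alone, 5 in females alone and 8 at an adjusted p of at most 0.01. Of the axon injury genes, 1 was higher in lumbar: this count was 2 with a filter at a mean of 0, a pseudocount of 1, TMM, array weights, the donor as a fixed effect or females alone, 1 to 2 with donors left out (2 without M2, F2 or F3), and 0 with total reads, the glial covariate or an adjusted p of at most 0.01. The sacral count, 13, was 0 with the glial covariate. Of the 9 relations with Fos over donors, 1 passed, and 0 did without M2 and M3. In fits that leave out donors or 1 sex, fewer libraries enter the fit, and for the other settings the cause was not tested. In males alone 6804 of all 15978 genes had an unadjusted p under 0.05 in limma, and in females alone 5941 of all 15702. With all donors it was 8621 of all 16304.

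No library limits these genes by depth, since Ier2, the lowest, had 241 reads or more.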
